A study of Mus musculus with 26 samples.

Results

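The 9 genes described here encode the invariant chains of the T cell receptor complex (Cd3e, Cd3d, Cd3g and Cd247), the CD8 co-receptor (Cd8a and Cd8b1) and the first signalling proteins behind them (Lck, Zap70 and Lat). They were chosen by symbol, as 9 of the 15300 entries of the authors' table for T cells, and all 9 were among the 13753 genes tested there. Their RNA was compared between 3 groups of mouse T cells with 3 libraries each. Each group was pmel-1 T cells from transgenic mice, which carry a receptor for the melanoma antigen gp100, kept in IL-2 at 500 IU/ml. One group was given MRTX1719 at 0.5 uM, one was given GSK3326595 at 0.5 uM and the third was the DMSO control, with 3 days of treatment. GSK3326595 inhibits the arginine methyltransferase PRMT5. MRTX1719 is a PRMT5 inhibitor that binds the enzyme when it holds methylthioadenosine. The treatment labels of GSK3326595 replicates 2 and 3 give that compound's number with other last digits while the titles do not, and all 3 libraries were taken as the same compound. The labels do not say how many mice gave the cells or whether replicates were separate cultures. The p-values below thus reflect how far these libraries varied, and that variation may be technical. The series also holds 17 libraries of MC38/gp100 cells, a mouse colon carcinoma line that carries gp100, as a control line or with Mtap knocked out. Each line was given MRTX1719 at 0.5 uM, GSK3326595 at 0.5 uM or DMSO for 5 days.

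The antigen-binding alpha and beta chains of the receptor have almost no cytoplasmic part, and the signal is passed on by the CD3 chains and the zeta chain, whose tails carry tyrosine motifs. The kinase Lck, carried in part by CD8, phosphorylates those motifs. The kinase Zap70 docks on them and phosphorylates the membrane adaptor Lat, on which further adaptors and enzymes assemble. In CD8 T cells this chain of proteins sets the response to peptide on MHC class I. PRMT5 places symmetric dimethyl marks on arginines of histones and of proteins that splice RNA.

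The T cell libraries held 13813406 to 20772699 counts, and each of the 9 genes had 2248 to 22684 counts in every library. Within a group the coefficient of variation of a gene's level was 0.489% to 10.8%, with a median of 2.08%. Levels are given as CPM, a gene's count relative to its scaled library total. The T cell label held in the markers: the 10 T cell markers summed to 11317 to 11972 CPM with MRTX1719, 12504 to 13879 with GSK3326595 and 10693 to 10985 with DMSO, with none at 0. The 4 markers of CD4 T cells, the other major class, summed to 34.5 to 38.8 CPM with MRTX1719, 30.1 to 33.9 with GSK3326595 and 40.3 to 42.6 with DMSO. Most of that was Zbtb7b, a transcription factor gene, which fell by 0.21 with MRTX1719 and by 0.41 with GSK3326595 on the log2 scale, while the co-receptor gene Cd4 itself averaged at most 0.61 CPM in any group. The B cell marker Ms4a1, the NK cell marker Ncr1 and the myeloid markers Lyz2 and Spi1 had no counts in any T cell library, while other markers of those lists had counts. The 5 gamma-delta T cell markers, mostly constant genes of the gamma and delta receptor chains, summed to 210 to 223 CPM with MRTX1719, 254 to 264 with GSK3326595 and 197 to 199 with DMSO. Of the 4 tested, 3 rose with MRTX1719 and all 4 with GSK3326595, where 18.9% and 26.6% of all genes rose, and the part of gamma-delta transcripts in the results below was not tested. NK cell markers summed to 9.98 to 12.6, 10.4 to 11.9 and 7.17 to 8.03 CPM in the MRTX1719, GSK3326595 and DMSO libraries, B cell markers to 4.20 to 4.64, 5.19 to 7.49 and 3.76 to 5.17, and myeloid markers to 21.4 to 28.6, 25.0 to 27.6 and 27.6 to 31.0. Of 3 NK markers tested, 1 rose with MRTX1719 and 2 with GSK3326595, with Klrb1c up by 0.66 and 0.55. The 1 B cell marker tested, Cd79b, rose with GSK3326595 alone (0.56). Of 4 myeloid markers tested, 1 fell with MRTX1719, while with GSK3326595 Itgax rose (0.95) and Fcer1g fell (-0.47). Of all genes, 18.5% fell with MRTX1719 and 26.2% with GSK3326595. These are bulk samples, in which a change in the number of cells of a type and a change in RNA per cell cannot be told apart. In the 17 MC38 libraries 8 of the 9 genes stayed at or below 0.908 CPM, and Lck was at 3.38 to 6.54 CPM with a median of 4.28. Its highest value was in the Mtap knockout with MRTX1719 (5.11 to 6.54) and its lowest value in the control line with DMSO (3.38 to 3.83), a description with no test here.

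Both inhibitors left T cells with more RNA of several receptor genes, and none of the 9 genes fell against DMSO in the test. With MRTX1719, 6 of the 9 genes rose (Lat, Lck, Cd3d, Cd8b1, Cd8a and Cd247), where 18.9% of all genes tested rose and 37.4% changed in either direction. With GSK3326595, 7 of 9 rose (the same 6 and Cd3e), where 26.6% of all genes rose and 52.8% changed. Lck with GSK3326595 was the only change of 2-fold or more among the 9, a size that 5.93% of all genes reached in that comparison and 1.88% reached with MRTX1719. Set directly against GSK3326595, MRTX1719 gave less RNA of 5 of the 9 genes (Lck, Cd8a, Cd3e, Cd8b1 and Cd247) and more of none, where 19.7% of all genes were lower, 19.3% higher and 39.1% different in either direction. None of the 9 differed 2-fold between the compounds, as 2.38% of all genes did. The median log2 fold change of the 9 genes was 0.10 for MRTX1719 against DMSO, 0.30 for GSK3326595 against DMSO and -0.10 for MRTX1719 against GSK3326595, and that of all genes was within 0.01 of 0 in each. The 2 comparisons with DMSO use the same DMSO libraries. The shares over all genes, here and below, were not matched for level. Each of the 9 genes had at least 2248 counts in every library. The genes tested also include low ones such as Cd4, with a mean of at most 0.61 CPM in any group. Small changes are easier to call at high counts, so these shares are not a background of equal power. A gene is called changed here at an adjusted p below 0.05 in the quasi-likelihood test of edgeR, adjusted by Benjamini-Hochberg across the 13753 genes, and the number after a log2 fold change is its standard error.

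**Figure D1:**
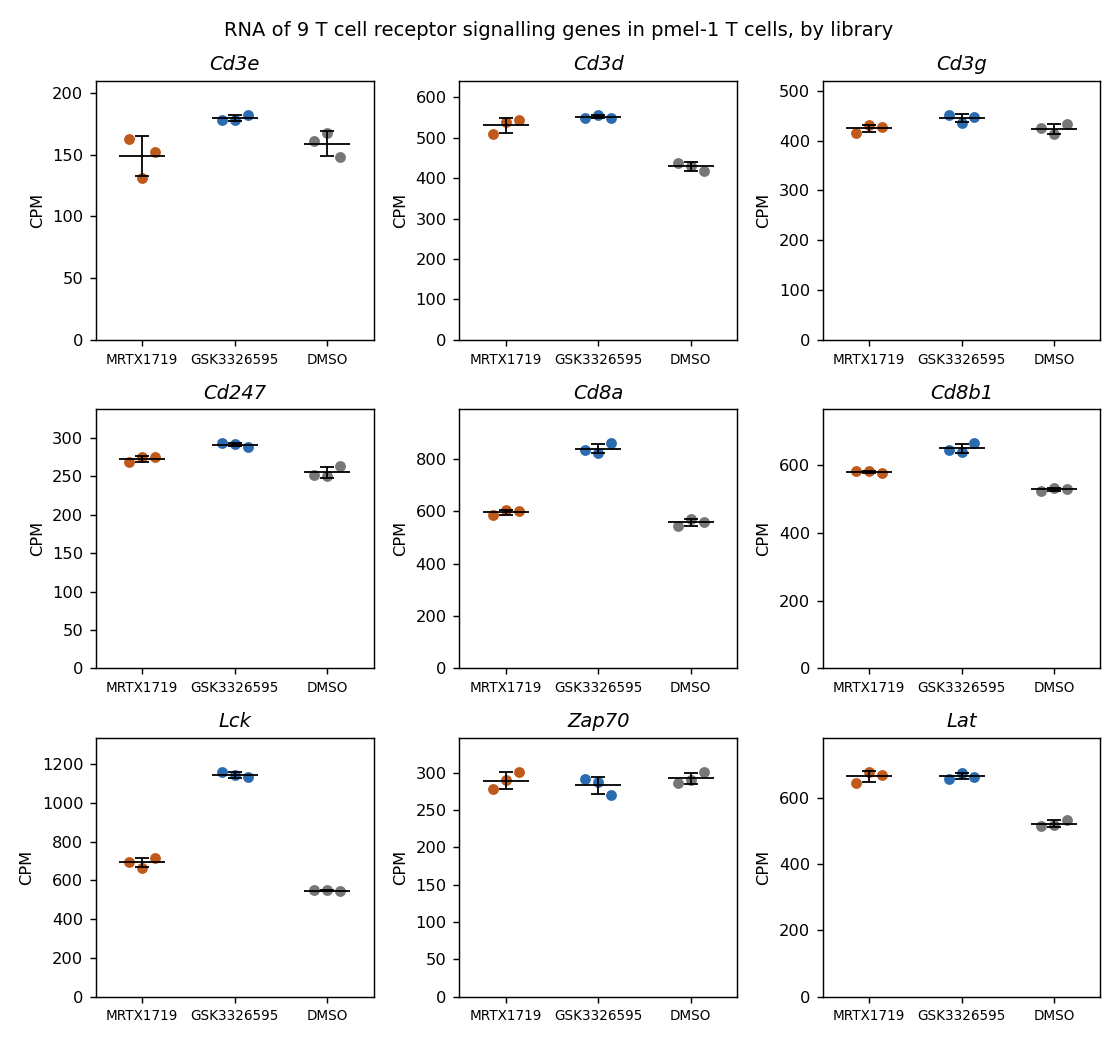
RNA level in CPM (vertical axes, from 0) of each of the 9 genes in the 9 T cell libraries, with MRTX1719, GSK3326595 and DMSO from left to right in every panel. Points are libraries, bars are the mean ± SD of 3. In the Lck panel the GSK3326595 libraries sit between 1131 and 1159.8 CPM and the DMSO libraries between 544 and 550.0, while the Zap70 groups lie over each other.

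The first genes of the chain are those of the CD3 chains, which sit side by side on chromosome 9. Cd3d (ENSMUSG00000032094.9) and Cd3g (ENSMUSG00000002033.15) run in opposite directions from starts 1355 bases apart in GENCODE M21 on the GRCm38 build, and Cd3e (ENSMUSG00000032093.8) lies 11401 bases past the far end of Cd3d. The start regions of Cd3d and Cd3g are shown because Cd3d passed the test with both compounds and its neighbour with neither; the difference between the 2 genes was not tested. Each is a RefSeq window on GRCm38.p6 from 250 bases before to 50 bases after the start, on the gene's own strand, at chr9:44981536-44981835 (plus strand) for Cd3d and chr9:44980382-44980681 (minus strand) for Cd3g. Capitals mark matches, on either strand, to letters bound by families of T cell transcription factors. The RUNX motif was searched as TGTGGT, the ETS motif was searched as CGGAAG or AGGAAG, the GATA motif was searched as AGATAA, and the E-box was searched as CAGNTG. No match of one motif overlaps a match of another in the windows printed here.
Cd3d: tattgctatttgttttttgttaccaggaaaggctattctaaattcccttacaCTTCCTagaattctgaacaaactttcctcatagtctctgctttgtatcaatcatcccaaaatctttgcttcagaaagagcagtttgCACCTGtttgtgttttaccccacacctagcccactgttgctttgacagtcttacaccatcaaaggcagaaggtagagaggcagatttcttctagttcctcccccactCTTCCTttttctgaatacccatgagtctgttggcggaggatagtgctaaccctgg
Cd3g: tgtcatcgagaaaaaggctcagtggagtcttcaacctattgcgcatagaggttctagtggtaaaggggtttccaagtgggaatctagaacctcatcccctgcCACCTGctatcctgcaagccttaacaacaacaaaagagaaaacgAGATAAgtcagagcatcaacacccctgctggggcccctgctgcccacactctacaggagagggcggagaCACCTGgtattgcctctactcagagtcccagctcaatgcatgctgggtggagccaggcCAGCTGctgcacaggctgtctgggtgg
The Cd3d window holds 2 ETS matches and 1 E-box match, and the Cd3g window holds 1 GATA match and 3 E-box matches. No ETS match lies in the Cd3g window. Over all 32851 mouse windows of that table, 46.5% hold an ETS match, 51.4% an E-box match, 16.8% a RUNX match and 11.2% a GATA match. Windows were found for 8 of the 9 genes, with none for Cd8b1. The 8 genes have 11 windows between them, of which 8 hold an ETS match, 10 an E-box match, 3 a RUNX match and 1 a GATA match. These are matches of letters, and nothing here measured binding.

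Cd3d encodes the delta chain, which pairs with epsilon. Its level was 509.7, 539.7 and 543 CPM in the MRTX1719 libraries, 550.0, 557 and 549 in the GSK3326595 libraries, and 438, 430.9 and 418 in the DMSO libraries. Every treated library was above every DMSO library. Cd3d rose by 0.31 ± 0.034 with MRTX1719 (1.24-fold, adjusted p = 1.18e-12) and by 0.36 ± 0.034 with GSK3326595 (1.29-fold, adjusted p = 2.48e-16). The direct difference between the compounds was -0.06 ± 0.034 (adjusted p = 0.199), with a 95% interval of -0.12 to 0.01.

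Cd3g encodes the gamma chain, the partner of epsilon in the other CD3 pair. It had 416, 431 and 426 CPM with MRTX1719, 452, 436 and 448 with GSK3326595, and 425, 412 and 433 with DMSO. The MRTX1719 and DMSO libraries overlapped almost fully, and the GSK3326595 libraries lay just above both. Its log2 fold change was 0.00 ± 0.034 with MRTX1719 (95% interval -0.07 to 0.07, adjusted p = 0.972) and 0.07 ± 0.034 with GSK3326595 (95% interval 0.00 to 0.14, adjusted p = 0.0724). The value for GSK3326595 passed without DMSO replicate 3 (adjusted p = 0.0331) and with only the 2 groups in the fit (adjusted p = 0.0491).

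Cd3e encodes the epsilon chain, which is part of both CD3 pairs. Its libraries gave 163, 131 and 152 CPM with MRTX1719, 178, 178 and 182 with GSK3326595, and 161, 168 and 148 with DMSO. The MRTX1719 libraries had the widest relative spread of the 9 genes (10.8%), with replicate 2 the lowest of all 9 libraries, while the GSK3326595 libraries stood above all others. Cd3e rose by 0.18 ± 0.064 with GSK3326595 (adjusted p = 0.0319) and was at -0.10 ± 0.065 with MRTX1719 (adjusted p = 0.274). It was lower with MRTX1719 than with GSK3326595, at -0.27 ± 0.064 (adjusted p = 0.00339). The call for GSK3326595 against DMSO was lost with DESeq2 (adjusted p = 0.0648), without DMSO replicate 1 (0.0551) or 3 (0.0822), and without GSK3326595 replicate 1 (0.0647), 2 (0.0733) or 3 (0.115). Without MRTX1719 replicate 1, Cd3e was called lower with MRTX1719 than with DMSO, at -0.16 (adjusted p = 0.0108).

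Cd247 (ENSMUSG00000005763.16, chromosome 1) encodes the zeta chain, whose homodimer carries most of the complex's tyrosine motifs. Its level was 269, 275 and 275 CPM with MRTX1719, 293, 292 and 288 with GSK3326595, and 251, 250.25 and 263 with DMSO. The 3 groups did not overlap, with GSK3326595 highest and MRTX1719 between it and DMSO. Cd247 rose by 0.10 ± 0.036 with MRTX1719 (adjusted p = 0.0264) and by 0.19 ± 0.036 with GSK3326595 (adjusted p = 3.04e-06), and was lower by 0.10 with MRTX1719 than with GSK3326595 (-0.10 ± 0.036, adjusted p = 0.0264). The MRTX1719 call against DMSO was lost with upper quartile scaling (adjusted p = 0.0724), without DMSO replicate 1 (0.115) or 2 (0.0931) and without MRTX1719 replicate 2 (0.0553) or 3 (0.0588). The direct difference was lost with no filter on low counts (adjusted p = 0.167), without GSK3326595 replicate 1 (0.0873) or 2 (0.0656) and without MRTX1719 replicate 1 (0.131) or 3 (0.0679). Cd247 overlaps Pou2f1 on the opposite strand. Pou2f1 had 2352 counts over the 9 libraries against 42640 for Cd247, and the strand setting of the authors' counting is not given in the sources used here.

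Within each library the CD3 chains were also compared as ratios, which do not depend on library scaling. The ratio of Cd3d to Cd3e counts averaged 3.60 ± 0.492 with MRTX1719, 3.08 ± 0.0589 with GSK3326595 and 2.70 ± 0.126 with DMSO (SD, n = 3 each). Its libraries did not overlap in any of the 3 comparisons, although the lowest MRTX1719 library (3.128) was barely above the highest GSK3326595 library (3.125), and each gave p = 0.1 in a two-sided exact permutation test, the smallest that 3 against 3 libraries allow. The ratio of Cd3g to Cd3e was 2.88 ± 0.371, 2.48 ± 0.0503 and 2.67 ± 0.235 in the MRTX1719, GSK3326595 and DMSO libraries. Its treated libraries overlapped the DMSO libraries (exact permutation p = 0.6 for MRTX1719 and 0.2 for GSK3326595), and the MRTX1719 libraries lay above the GSK3326595 libraries (1.16 times, exact permutation p = 0.1). There too the lowest MRTX1719 library (2.551) was barely above the highest GSK3326595 library (2.538). The ratio of Cd247 to Cd3e was 1.85 ± 0.224, 1.62 ± 0.0356 and 1.61 ± 0.149 in the same order of groups, also overlapping with DMSO (exact permutation p = 0.2 for MRTX1719 and 0.9 for GSK3326595), and with every MRTX1719 library above every GSK3326595 library (1.14 times, exact permutation p = 0.1), though barely (1.648 against 1.645). All 3 ratios divide by Cd3e, whose MRTX1719 libraries had the widest relative spread (10.8%), so their separations are not independent of each other. In all 15 tests of 5 ratios no p below 0.1 was possible, so none could pass an adjustment.

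The receptor's own constant genes, which these 9 genes serve, were followed as a list of 3. Trbc2, a constant gene of the beta chain, gave 8108, 7753 and 8283 CPM with MRTX1719, 10309, 9087 and 8909 with GSK3326595, and 7211, 7523 and 7483 with DMSO. Trac, the constant gene of the alpha chain, gave 107, 104 and 105 CPM with MRTX1719, 143, 142 and 144 with GSK3326595, and 103, 105 and 105 with DMSO. Trbc2 was highest in the 3 GSK3326595 libraries, and Trac there stood apart from 2 groups that overlapped. With GSK3326595 Trac rose by 0.45 ± 0.041 (adjusted p = 6.14e-17) and Trbc2 by 0.35 ± 0.045 (adjusted p = 5.87e-06), while Trbc1 was at 0.01 ± 0.032. With MRTX1719 Trbc1 rose by 0.13 ± 0.032 (adjusted p = 0.000647) and Trbc2 by 0.12 ± 0.045 (adjusted p = 0.0473), while Trac was at 0.01 ± 0.042. The share of all genes that rose was 18.9% with MRTX1719 and 26.6% with GSK3326595. The count of 2 called genes with MRTX1719 was 1 with DESeq2 and without DMSO replicate 1, 2 or 3 or MRTX1719 replicate 1 or 3. Gene counts do not separate transcripts of the transgenic receptor from those of the cells' own receptor genes.

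The CD8 co-receptor binds MHC class I as a dimer of an alpha and a beta chain, and both genes lie on chromosome 6. Cd8a (ENSMUSG00000053977.14), the chain that holds Lck, gave 587, 604 and 600.1 CPM with MRTX1719, 836, 825 and 861 with GSK3326595, and 544, 569.6 and 561 with DMSO. Cd8b1 (ENSMUSG00000053044.9), the beta chain, gave 582, 581 and 576 CPM with MRTX1719, 643, 638 and 664 with GSK3326595, and 523, 530.5 and 529 with DMSO. For both genes the 3 groups did not overlap, in the order GSK3326595, MRTX1719, DMSO. Cd8a rose by 0.59 ± 0.033 with GSK3326595 (1.51-fold, adjusted p = 3.4e-29) and by 0.10 ± 0.033 with MRTX1719 (1.07-fold, adjusted p = 0.0144). Cd8b1 rose by 0.30 ± 0.033 with GSK3326595 (1.23-fold, adjusted p = 3.58e-13) and by 0.14 ± 0.033 with MRTX1719 (1.10-fold, adjusted p = 0.000474). Without DMSO replicate 1 the MRTX1719 value of Cd8a was 0.08 and no longer passed (adjusted p = 0.117). Set against GSK3326595, MRTX1719 gave less Cd8a (-0.49 ± 0.033, adjusted p = 6.28e-24) and less Cd8b1 (-0.16 ± 0.033, adjusted p = 2.51e-05).

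The 2 co-receptor chains were also set against each other within each library, as the ratio of Cd8b1 to Cd8a counts. It was 0.991, 0.961 and 0.960 in the MRTX1719 libraries, 0.770, 0.774 and 0.771 in the GSK3326595 libraries, and 0.960, 0.931 and 0.943 in the DMSO libraries. The GSK3326595 libraries had an SD of 0.00218 and lay below all others (exact permutation p = 0.1 against DMSO and for MRTX1719 against GSK3326595). The MRTX1719 and DMSO libraries overlapped (exact permutation p = 0.2). The Cd8a start region is shown as that of the co-receptor chain with the larger change with GSK3326595, at chr6:71373177-71373476 (plus strand, GRCm38.p6), with capitals as above.
Cd8a: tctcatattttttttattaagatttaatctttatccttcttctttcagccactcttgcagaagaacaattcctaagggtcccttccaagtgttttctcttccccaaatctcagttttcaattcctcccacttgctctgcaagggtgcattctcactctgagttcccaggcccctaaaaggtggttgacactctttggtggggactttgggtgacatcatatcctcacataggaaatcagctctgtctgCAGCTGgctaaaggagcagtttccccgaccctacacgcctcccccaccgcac
It holds 1 E-box match and no RUNX, ETS or GATA match.

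Lck (ENSMUSG00000000409.15, chromosome 4), the kinase that starts the signal, changed most of the 9 genes with GSK3326595. RefSeq gives it a distal and a proximal start, and both windows are printed because the gene counts join the transcripts of both. The distal window is at chr4:129573592-129573891 and the proximal at chr4:129558323-129558622, both on the minus strand of GRCm38.p6, with capitals as above.
Lck distal: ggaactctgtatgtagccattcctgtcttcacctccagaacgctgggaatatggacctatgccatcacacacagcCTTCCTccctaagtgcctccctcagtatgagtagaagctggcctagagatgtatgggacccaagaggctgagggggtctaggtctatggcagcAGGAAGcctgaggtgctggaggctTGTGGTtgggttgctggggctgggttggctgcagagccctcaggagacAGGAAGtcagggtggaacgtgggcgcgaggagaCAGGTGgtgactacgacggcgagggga
Lck proximal: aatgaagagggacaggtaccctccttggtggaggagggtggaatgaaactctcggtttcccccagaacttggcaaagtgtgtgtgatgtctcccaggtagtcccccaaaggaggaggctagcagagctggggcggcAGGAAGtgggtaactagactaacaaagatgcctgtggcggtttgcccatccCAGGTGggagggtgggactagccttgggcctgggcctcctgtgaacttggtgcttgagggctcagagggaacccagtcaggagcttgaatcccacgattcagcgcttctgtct
The distal window holds 1 RUNX, 3 ETS and 1 E-box matches, and the proximal window 1 ETS and 1 E-box match. Which start was used is not measured by these counts.

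The Lck level was 695, 666 and 716 CPM in the MRTX1719 libraries, 1159.8, 1140.4 and 1131 in the GSK3326595 libraries, and 549.7, 550.0 and 544 in the DMSO libraries. The groups were far apart, with the means at 692 ± 25.0, 1144 ± 14.5 and 548 ± 3.61 CPM for MRTX1719, GSK3326595 and DMSO (SD, n = 3 each). With GSK3326595 Lck rose 2.09-fold (95% interval 2.0 to 2.19, log2 fold change 1.06 ± 0.033, adjusted p = 1.33e-47). By adjusted p that was place 17 among the 13753 genes tested, and by size of the fold change place 720. With MRTX1719 Lck rose 1.26-fold (95% interval 1.21 to 1.32, log2 fold change 0.34 ± 0.033, adjusted p = 5.4e-15). The direct difference was -0.72 ± 0.033 (adjusted p = 4.15e-35), or 0.605 times the GSK3326595 level at the same dose and time. These 3 calls held in all 17 alternatives run for each.

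Zap70 (ENSMUSG00000026117.11, chromosome 1), the kinase that acts next, gave 277, 289 and 301 CPM with MRTX1719, 292, 287 and 269.5 with GSK3326595, and 286, 289.5 and 301 with DMSO. All 3 groups overlapped. Its log2 fold change was -0.01 ± 0.037 with MRTX1719 (95% interval -0.09 to 0.06, adjusted p = 0.817) and -0.05 ± 0.037 with GSK3326595 (95% interval -0.12 to 0.03, adjusted p = 0.278). Between the compounds it was 0.04 ± 0.037 (95% interval -0.04 to 0.11, adjusted p = 0.488). Changes of Zap70 as large as those of Lck lay outside these intervals.

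The 2 kinases were compared within each library as the ratio of Zap70 to Lck counts. It was 0.399, 0.435 and 0.420 in the MRTX1719 libraries, 0.251, 0.252 and 0.238 in the GSK3326595 libraries, and 0.521, 0.526 and 0.554 in the DMSO libraries. The 3 groups did not overlap, and the mean was 0.784 times that of DMSO with MRTX1719 and 0.463 times with GSK3326595 (exact permutation p = 0.1 each). Between the compounds the MRTX1719 mean was 1.69 times that of GSK3326595 (exact permutation p = 0.1).

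**Figure D2:**
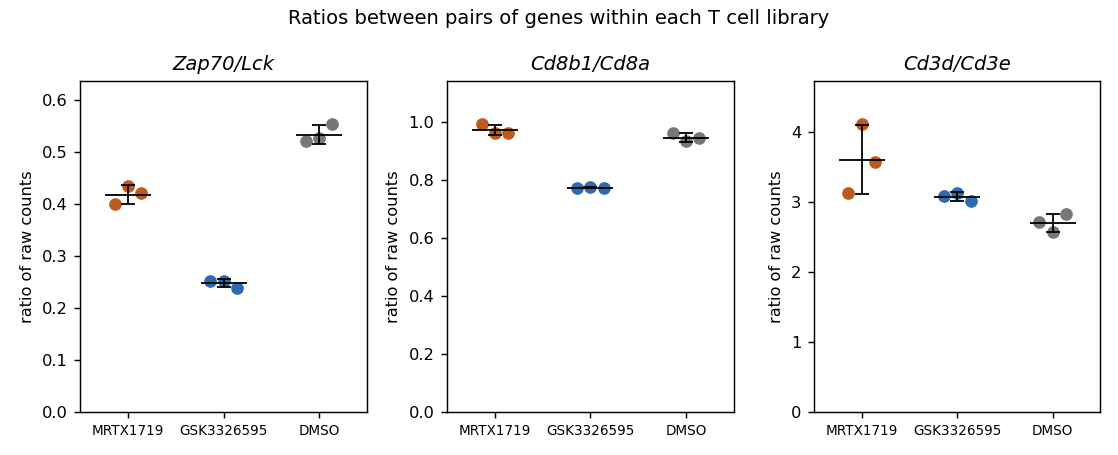
Ratio of raw counts of 2 genes within each T cell library (vertical axes, from 0), for Zap70 over Lck, Cd8b1 over Cd8a and Cd3d over Cd3e, with MRTX1719, GSK3326595 and DMSO from left to right. Points are libraries and bars the mean ± SD of 3. The Zap70 to Lck ratio averages 0.247 with GSK3326595 and 0.534 with DMSO, and the Cd8b1 to Cd8a ratio is low in the GSK3326595 libraries alone.

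Lat (ENSMUSG00000030742.8, chromosome 7), the adaptor that Zap70 phosphorylates, gave 645, 679 and 669 CPM with MRTX1719, 658, 676 and 663 with GSK3326595, and 514, 519.6 and 533 with DMSO. Treated libraries lay above all DMSO libraries and the 2 compounds overlapped. Lat rose by 0.35 ± 0.033 with MRTX1719 (1.27-fold, adjusted p = 2.07e-15) and by 0.35 ± 0.033 with GSK3326595 (1.27-fold, adjusted p = 4.29e-16). The MRTX1719 level was 0.999 times the GSK3326595 level, with a 95% interval of 0.954 to 1.05. Its start region is shown because Lat was the gene of the 9 for which the compounds had the closest values, at chr7:126369519-126369818 (minus strand, GRCm38.p6).
Lat: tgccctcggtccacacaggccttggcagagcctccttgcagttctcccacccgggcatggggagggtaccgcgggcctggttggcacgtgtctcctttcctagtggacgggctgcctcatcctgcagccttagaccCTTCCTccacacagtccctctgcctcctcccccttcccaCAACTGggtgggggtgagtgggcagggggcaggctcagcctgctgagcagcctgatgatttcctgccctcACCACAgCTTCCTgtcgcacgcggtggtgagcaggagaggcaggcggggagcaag
The window holds 1 RUNX, 2 ETS and 1 E-box match, with the RUNX match on the opposite strand as ACCACA.

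In the direct comparison of the compounds, Lck and Cd8a were lower with MRTX1719 than with GSK3326595 by 0.72 and 0.49 on the log2 scale, and Cd3e, Cd8b1 and Cd247 by 0.27, 0.16 and 0.10. Cd3d, Cd3g and Lat did not pass, with intervals that reached no further than -0.14 and 0.06. The Cd3g interval lay just below 0, at -0.1371 to -0.0012, while its adjusted p was 0.102. Zap70 did not pass either, with an interval up to 0.11. Between the compounds 7 of 9 genes had MRTX1719 libraries all below the GSK3326595 libraries, against 23.7% of all genes tested, and none had them all above, against 22.9%. Against DMSO the libraries did not overlap, with the inhibitor higher, for 6 of 9 genes with MRTX1719 (22.8% of all genes) and for 8 of 9 with GSK3326595 (29% of all genes). None of the 9 had an inhibitor's libraries all below those of DMSO, as 22.9% of all genes had with MRTX1719 and 29.1% with GSK3326595.

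**Figure D3:**
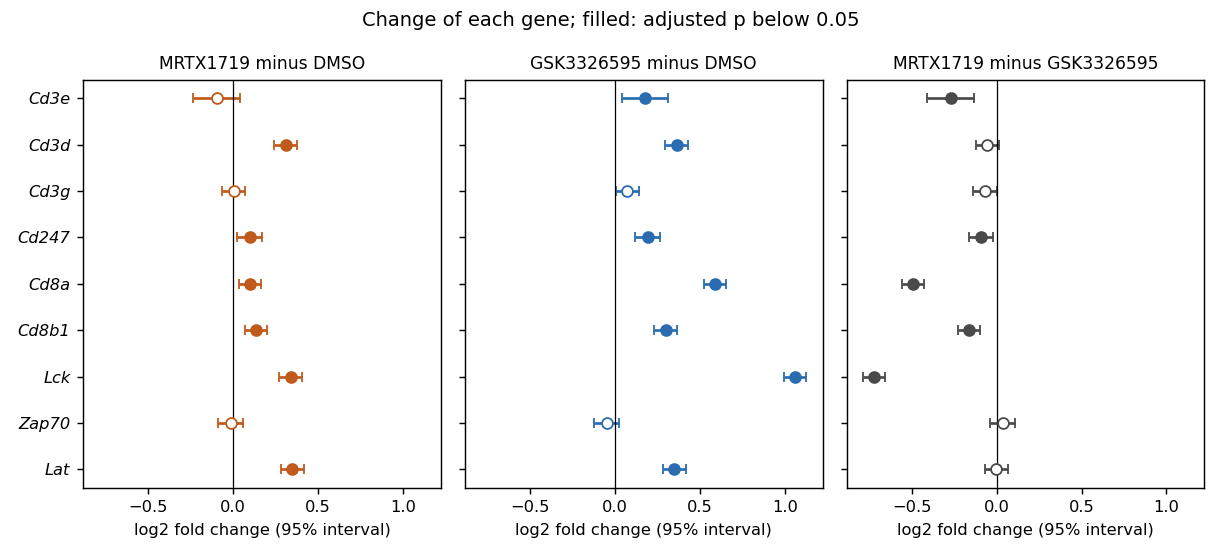
Log2 fold change (horizontal axis) with its 95% interval for each of the 9 genes, in panels for MRTX1719 minus DMSO, GSK3326595 minus DMSO and MRTX1719 minus GSK3326595. Filled points have an adjusted p below 0.05. Lck stands at 0.34, 1.06 and -0.72 in the 3 panels and Lat at 0.35, 0.35 and 0.00.

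Levels can be compared between genes only per length, so CPM was divided by the merged exon length in GENCODE M21 (CPM per kilobase). That length joins the exons of all annotated transcripts, with 4080 bases for Cd3e and 1815 for Cd3d. The order of genes below thus depends in part on the annotation, which is not on the authors' build. Cd8b1 was the highest of the 9 in each group, at 391 ± 1.91 with MRTX1719, 437 ± 9.08 with GSK3326595 and 356 ± 2.84 with DMSO, and Cd3e the lowest, at 36.5 ± 3.94, 44.0 ± 0.606 and 39.0 ± 2.46 (SD, n = 3 each). With MRTX1719 the order was Cd8b1, Cd3d (292.5 ± 10.1), Lat (240.1 ± 6.24), Lck (236 ± 8.55), Cd8a (164 ± 2.48), Cd3g (129.8 ± 2.38), Zap70 (96.7 ± 3.95), Cd247 (51.15 ± 0.654) and Cd3e, and only Lat and Lck among these neighbours overlapped. With GSK3326595 Lck stood second at 390.5 ± 4.94, above Cd3d at 304 ± 2.34, Lat at 240.5 ± 3.41 and Cd8a at 231 ± 5.10, and none of these overlapped. With DMSO the order was as with MRTX1719, from Cd3d at 236 ± 5.76, Lat at 189 ± 3.45 and Lck at 187 ± 1.23 down, and Lat and Lck again overlapped. Trbc2 was far above all of them at 11630 ± 390.0, 13630 ± 1100.0 and 10700.0 ± 245 CPM per kilobase in the MRTX1719, GSK3326595 and DMSO groups. Trbc1 was also above all of them, with means of 1218, 1122 and 1113 in the same order of groups. Trac was far lower, with means of 112.8, 152.8 and 111.8, below Cd8b1, Cd3d, Lat, Lck and Cd8a in each group. The cause of the gap between the alpha and beta constant genes was not tested.

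The wider pathway was read through lists of genes around the 9. Of 11 proximal kinases and phosphatases, 1 rose and 4 fell with MRTX1719 (median -0.08), and 6 rose and 2 fell with GSK3326595 (median 0.09). Of all genes tested, 18.9% rose and 18.5% fell with MRTX1719, and 26.6% rose and 26.2% fell with GSK3326595. Ptprc, which encodes CD45, the phosphatase that keeps Lck ready to act, had 1380.4 ± 12.4 CPM with MRTX1719, 2196 ± 66.3 with GSK3326595 and 1393 ± 34.4 with DMSO. It rose by 0.66 ± 0.031 with GSK3326595 (adjusted p = 6.56e-34), and with MRTX1719 its value was -0.01 ± 0.031. Csk, the kinase that restrains Lck, rose with both (0.16 ± 0.038 with MRTX1719 and 0.42 ± 0.037 with GSK3326595). Pag1, which anchors Csk at the membrane, fell with MRTX1719 (-0.32 ± 0.077), and Syk, the relative of Zap70, fell with GSK3326595 (-0.56 ± 0.21). Txk, a Tec family kinase, fell by 0.16 with MRTX1719 and rose by 0.22 with GSK3326595, and the phosphatase gene Ptpn22 likewise stood at -0.10 and 0.09, each past the test. The 5 calls with MRTX1719 became 3 without DMSO replicate 2, without MRTX1719 replicate 2 and with no filter on low counts, and the 8 with GSK3326595 became 5 without GSK3326595 replicate 3.

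Of 20 adaptors and enzymes listed around Lat, not all of which bind it, 2 rose and 5 fell with MRTX1719 (median -0.04). With GSK3326595, 9 of them rose and 6 fell (median 0.01). The 7 changed with MRTX1719 are close to the share over all genes (37.4%), and with GSK3326595 that share was 52.8%. Plcg1, the phospholipase that Lat recruits, had 249.6 ± 7.33 CPM with MRTX1719, 404 ± 1.60 with GSK3326595 and 241 ± 1.82 with DMSO. It rose by 0.74 ± 0.036 with GSK3326595, and its 0.05 ± 0.036 with MRTX1719 did not pass. Sos1, an exchange factor for Ras, fell by 0.46 with MRTX1719 and by 0.82 with GSK3326595 (adjusted p = 2.26e-09 and 4.65e-20). Rasgrp1, another Ras exchange factor, fell by 0.28 with MRTX1719 and by 0.18 with GSK3326595. Nck2, an adaptor to the cytoskeleton, rose by 0.63 ± 0.13 with GSK3326595.

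Of 20 negative regulators, 3 rose and 7 fell with MRTX1719 (18.9% and 18.5% of all genes, median -0.06), and 5 rose and 10 fell with GSK3326595 (26.6% and 26.2% of all genes, median -0.16). The diacylglycerol kinase gene Dgka rose by 0.70 ± 0.035 with GSK3326595 and was at 0.02 ± 0.036 with MRTX1719. Dusp2, a phosphatase of MAP kinases, fell by 0.29 with MRTX1719 and by 0.62 with GSK3326595. The adaptor gene Dok2 fell by 0.10 and by 0.58. Cblb, a ubiquitin ligase that dampens the receptor's signal, fell by 0.26 with MRTX1719 and rose by 0.15 with GSK3326595, while Ubash3b, a phosphatase of Zap70 and Syk, rose by 0.18 with MRTX1719 and fell by 0.19 with GSK3326595.

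Genes that a receptor signal induces fell more often than they rose. Of 16 tested members of that list of 17, with Cd40lg too low to test, 0 rose and 10 fell with MRTX1719 (median -0.23), and 1 rose and 12 fell with GSK3326595 (median -0.56). The share of all genes that fell was 18.5% with MRTX1719 and 26.2% with GSK3326595. Egr1, an immediate early transcription factor gene, had 177 ± 1.68 CPM with MRTX1719, 103 ± 1.38 with GSK3326595 and 263 ± 3.71 with DMSO. It fell by 0.57 ± 0.037 with MRTX1719 (adjusted p = 3.68e-24) and by 1.35 ± 0.039 with GSK3326595 (adjusted p = 3.15e-50). Its relative Egr2 fell by 0.64 and by 1.62, to 5.36 and 2.70 CPM against 8.27 with DMSO. The riser with GSK3326595 was Xcl1, a chemokine gene, by 2.94 ± 0.25 to 5.81 CPM, against 0.755 with DMSO. Tnfrsf9, which encodes 4-1BB, fell by 0.82 ± 0.040 with GSK3326595 and was at -0.02 ± 0.038 with MRTX1719. Between the compounds, 9 of the 16 were higher and 2 lower with MRTX1719 than with GSK3326595 (19.3% and 19.7% of all genes, median 0.30). The other lists differed in this. Of 11 proximal kinases and phosphatases 1 was higher and 7 lower, and of 20 adaptors and enzymes listed around Lat 4 and 10. Of 20 negative regulators 6 were higher and 4 lower, and of 20 co-stimulatory and accessory receptors 6 and 7. Of 22 genes of the calcium, NFAT and NF-kappaB arm 3 were higher and 11 lower. Of 17 transcription factors 2 were higher and 8 lower, and of the 3 receptor constant genes 1 and 2.

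Co-stimulatory and accessory receptors went both ways, 6 up and 3 down of 20 with MRTX1719 and 10 up and 6 down with GSK3326595 (medians 0.07 and 0.13). The same shares over all genes were 18.9% up and 18.5% down with MRTX1719 and 26.6% up and 26.2% down with GSK3326595. Cd27, a co-stimulatory receptor, rose by 0.19 ± 0.051 with MRTX1719 and by 0.95 ± 0.049 with GSK3326595, while Cd28 fell by 0.33 and by 0.58. Cd84, of the SLAM family, fell by 0.34 and by 0.62. Among 22 genes of the calcium, NFAT and NF-kappaB arm, 6 rose and 8 fell with MRTX1719 (18.9% and 18.5% of all genes) and 10 rose and 7 fell with GSK3326595 (26.6% and 26.2% of all genes), with medians of -0.04 and 0.11. Itpr1, a calcium release channel gene, rose by 0.40 ± 0.057 with MRTX1719 and by 1.12 ± 0.054 with GSK3326595, while the channel gene Orai2 fell by 0.47 and by 0.71 and the NF-kappaB gene Rel by 0.60 and by 0.68. Itpr3 fell by 0.14 with MRTX1719 and rose by 0.10 with GSK3326595.

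Of 17 transcription factors that act on T cell genes, 4 rose and 7 fell with MRTX1719 (18.9% and 18.5% of all genes, median -0.03) and 7 rose and 5 fell with GSK3326595 (26.6% and 26.2% of all genes, median 0.04). Tcf7, which encodes TCF-1, had 45.0 ± 3.40 CPM with MRTX1719, 112 ± 2.92 with GSK3326595 and 28.0 ± 1.10 with DMSO, a rise of 0.69 ± 0.061 and of 2.0 ± 0.055. Runx1 fell by 0.73 ± 0.15 with MRTX1719 and by 1.07 ± 0.16 with GSK3326595, and Ets1 rose by 0.15 ± 0.056 and by 0.68 ± 0.053. Lef1 fell by 0.17 with MRTX1719 and rose by 0.20 with GSK3326595. The 11 calls with MRTX1719 became 7 without DMSO replicate 1 and without MRTX1719 replicate 3.

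**Figure D4:**
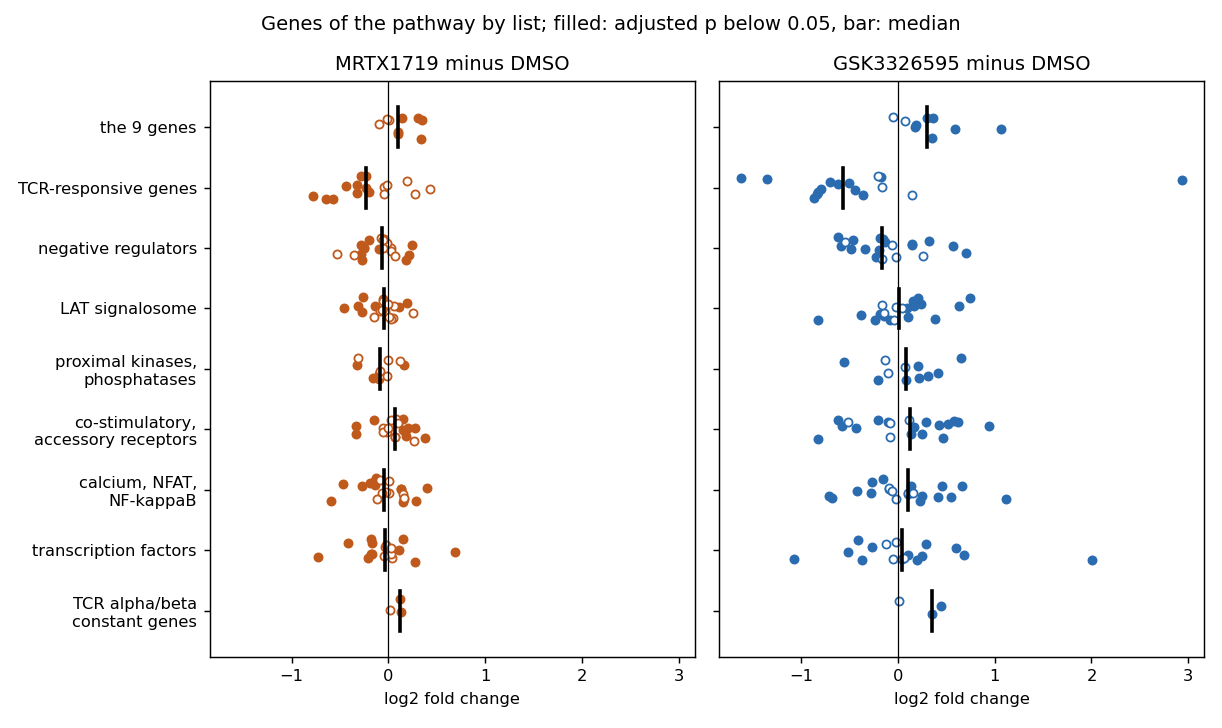
Log2 fold change (horizontal axis) of every tested gene of the 9 genes and of 8 pathway lists, for MRTX1719 minus DMSO on the left and GSK3326595 minus DMSO on the right. Filled points have an adjusted p below 0.05 and black bars are list medians. The median of the 9 genes lies at 0.10 and 0.30, and that of the TCR-responsive genes at -0.23 and -0.56.

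The genes whose level ran most like each of the 9 over the 9 T cell libraries were found by Pearson's r of log2(CPM + 0.1), as a description. The libraries share their 3 groups, so a gene with the same order of groups scores high. For Lck they were Adgrg5 (r = 0.999), Tcf7 (r = 0.998) and Zfyve1 (r = 0.998). For Cd8a they were Sorl1, Fas and Nin (r = 0.996 each), and Cd8b1 ran most like Mfsd1 (r = 0.999). Lat ran most like Clns1a (r = 0.997), Exosc3 (r = 0.995) and Eef1a1 (r = 0.992), and Cd3d most like Thoc7, Uqcrh and Polr1d (r = 0.991 each). Zap70, with no called change, had a best value of 0.917, with P3h1.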

How the data were processed

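The authors deposited raw counts per gene, as whole numbers, and a second table of normalized signal. The submitters' processing notes name the tools TopHat2 2.0.10, Bowtie2 2.1.0 and DESeq 1.18.0 and the mouse build GRCm39. What program counted the reads, on which annotation and strand, is not given in the sources used here. The deposited normalized signal equals the raw counts divided by 1 factor per library, and matching the tables within 1e-06 gave 15300 of 15300 entries their symbols. Per the labels' protocols the libraries were made from poly(A) RNA.

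The members, the pathway lists, the tests and the rule for named genes were chosen with earlier results of these data known. Named genes are the 9 members and, per list and comparison, at most the 4 called genes with the largest change plus those called in opposite directions by the 2 compounds.

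Raw counts of the 9 T cell libraries were fitted in R 4.3.3 with edgeR 4.0.16 (TMM scaling, filterByExpr, robust quasi-likelihood test), which left 13753 genes. Adjusted p-values are Benjamini-Hochberg over those genes, with 0.05 as threshold. The common biological coefficient of variation was 0.0372. Counts of any 2 replicates differed beyond sampling noise (chi-square per gene 1.96 to 3.74). The fit was tested on simulated data, with 50 genes changed at each size between GSK3326595 and DMSO. It recovered 48% of changes of 0.25 on the log2 scale, 78% of 0.5, and 100% of 1 and of 2. Of 13316 unchanged genes it called 8. The simulation changed few of its 13516 genes and gave each the spread of the fitted trend. In the data 52.8% of genes were called for GSK3326595 against DMSO, and the spread differed by gene. These rates of recovery and of false calls thus do not carry over to the calls above. Ratios were tested by two-sided exact permutation. There were 17 alternatives per result, including DESeq2 1.42.0, other scalings and filters, a replicate block and leaving out each library. Promoter windows come from RefSeq on GRCm38.p6, and exon lengths, neighbours and overlaps from GENCODE M21 on GRCm38, which is not the authors' build and served for lengths and positions of genes alone.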

Additional observations from a re-analysis of the deposited data

How the results depend on the processing

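The 27 log2 fold changes of the 9 genes were recomputed under 17 alternatives, 459 values in all. Of these 423 kept their direction and side of the threshold, 17 lost the call, 3 gained it and 16 changed sign, and 18 of the 27 kept direction and call throughout. Sign changes came in 3 differences, none of which passed the test in those settings. For Cd3g with MRTX1719 against DMSO the value was -0.0145 with upper quartile scaling and -0.0012 with a minimum mean CPM of 1, and -0.0134 to 0.0261 when 1 library was left out. For Zap70 with MRTX1719 against DMSO it was 0.0084 with no filter on low counts, and -0.0369 to 0.0210 when 1 library was left out. For Lat with MRTX1719 against GSK3326595 it was 0.0006 with RLE size factors, 0.0009 with DESeq2, 0.0015 with a minimum mean CPM of 1, 0.0040 with no filter, 0.0049 with only the 2 groups compared, and -0.0163 to 0.0261 when 1 library was left out. The cause was not tested. Counts of changed genes among the 9 ran from 5 to 6 for MRTX1719 against DMSO (4 to 7 when 1 library was left out), from 6 to 8 for GSK3326595 against DMSO (6 to 7) and from 4 to 5 between the compounds (4 to 5). Over all genes they ran from 4332 to 5180 (4385 to 5210), from 6483 to 7282 (6567 to 7343) and from 4542 to 5374 (4688 to 5408). No pairing by replicate number was seen in the counts, where deviations of same-numbered libraries from their group mean correlated at -0.0396 to 0.0386. Not every library correlated best with its own number. With 3 libraries per group this check cannot show that the samples were unpaired. With a replicate block the counts among the 9 were 6, 7 and 5, and over all genes 5036, 7195 and 5265, against 5140, 7260 and 5376 without it. Other scalings moved the median log2 fold change of all genes by -0.0168 to 0.0044.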

Other observations

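Genes next to the 9 on the chromosome gave values of their own, with neighbours taken from GENCODE M21 on GRCm38. Ube4a lies 3972 bases past the end of Cd3g and stood at -0.01 with MRTX1719 and 0.57 with GSK3326595 (edgeR adjusted p = 0.884 and 3.29e-16), so the chromosome 9 stretch from Ube4a to Cd3e held genes with and without a call for each compound. Smyd1 starts 555 bases from Cd8b1 on the opposite strand and stood at -0.15 with MRTX1719 and 0.55 with GSK3326595 (adjusted p = 0.379 and 4.92e-05). Gm44174 lies 143 bases upstream of Cd8a on the same strand. It stood at 0.02 with MRTX1719 and 0.44 with GSK3326595 (adjusted p = 0.932 and 0.00266), while Cd8a rose with both. Spns1 lies 490 bases upstream of Lat and stood at -0.09 with MRTX1719 and -0.24 with GSK3326595 (adjusted p = 0.178 and 2.11e-05), while Lat rose with both. Beside Lck, Eif3i stood at 0.32 with MRTX1719 and 0.05 with GSK3326595 (adjusted p = 6.14e-12 and 0.241), and Hdac1 at 0.09 and 0.12 (adjusted p = 0.0442 and 0.00566). The relation between neighbours was not tested.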
